A study of Mus musculus with 54 samples.

Results

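Endolysosomal solute carriers are transporters that sit in the membranes of endosomes and lysosomes, and 6 of them were followed here in mouse brain macrophages: Slc46a3, Slc9a9, Slc15a3, Slc15a4, Slc29a3 and Slc37a2. Members were taken by symbol, and all 6 were found among the 33280 symbols in each of the 3 deposited count tables. Slc46a3 and Slc9a9 were selected on their measured log2 changes after lipopolysaccharide (LPS), in which they fell strongly, so they are described without a p wherever libraries after LPS are compared, whereas the other 4 members were tested in every comparison. Libraries without LPS also enter those changes. The p values of Slc46a3 and Slc9a9 between such libraries are therefore not independent of the selection.

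The study asked how 2 kinds of brain macrophage, microglia (MG) and the subdural macrophages of the brain borders and vessels (sdCAMs), respond to endotoxin after these macrophages have been depleted and have repopulated the brain. MG and sdCAMs were sorted from brains devoid of choroid plexuses 12 h after an injection of LPS or PBS, and bulk RNA-seq gave 54 libraries in 18 groups of 3, with each replicate a separate mouse. Wild-type (WT) and Ccr2-/- mice each gave untreated (PBS-injected), CTL+LPS and BLZ945+LPS groups of MG and sdCAMs, where BLZ945, which depletes macrophages by blocking CSF1 receptor signalling, or its control (CTL) was given 8 weeks before harvest. Ccr2CreERT2/CreERT2:R26tdT/tdT reporter mice, homozygous for a CreERT2 allele at Ccr2 and for the tdTomato reporter, were all treated with BLZ945, then with tamoxifen, and received PBS or LPS; MG, tdT+ sdCAMs and tdT- sdCAMs were sorted from each of them. A tdT+ cell descends from a cell that used the Ccr2 promoter, as monocytes do, when tamoxifen was given, and cells without that recombination are tdT-. The labels give no age for these mice. The study's methods give one at the first gavage, in young adulthood, and place both sexes in each group. The response to LPS was therefore CTL+LPS against untreated in WT and Ccr2-/- mice, but BLZ945+LPS against BLZ945+PBS in the reporter line. The untreated mice received neither BLZ945 nor CTL, so LPS and the CTL treatment cannot be told apart in WT and Ccr2-/- mice. In the reporter, LPS and PBS mice lie in separate ranges of mouse and library numbers, which cannot be told apart from LPS either.

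Lysosomes digest material that macrophages take up, and transporters in their membrane carry the amino acids, peptides, nucleosides and sugars that are released back to the cytosol, many of them driven by the proton gradient that the V-ATPase builds. Slc46a3 exports small catabolites, including those of antibody-drug conjugates, and Slc9a9 (NHE9) is a sodium/proton exchanger that sets the pH of recycling endosomes. Slc15a3 and Slc15a4 carry histidine, short peptides and bacterial muramyl dipeptide, Slc15a4 also acts beside the endosomal Toll-like receptors, Slc29a3 (ENT3) exports nucleosides from lysosomes, and Slc37a2 belongs to a family of sugar-phosphate exchangers and is expressed in macrophages.

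The upstream sequences of the 3 members with the deepest falls after LPS in any population are shown because members that moved together may be compared at their starts. RefSeq promoters on GRCm38.p6 were matched for 5 of the 6 members, and Slc15a3 was named only. Each window holds the 250 bases before the annotated start, read 5′ to 3′ on the strand of the gene, and capitals mark motif matches. Slc46a3 lies on the minus strand at chr5:147894816-147895065, Slc9a9 on the plus strand at chr9:94669642-94669891 and Slc37a2 on the minus strand at chr9:37255739-37255988.
Slc46a3: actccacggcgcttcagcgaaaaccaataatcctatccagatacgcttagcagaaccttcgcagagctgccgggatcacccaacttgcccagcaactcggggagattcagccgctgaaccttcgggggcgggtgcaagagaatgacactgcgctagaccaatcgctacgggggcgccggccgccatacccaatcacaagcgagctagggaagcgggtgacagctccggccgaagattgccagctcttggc
Slc9a9: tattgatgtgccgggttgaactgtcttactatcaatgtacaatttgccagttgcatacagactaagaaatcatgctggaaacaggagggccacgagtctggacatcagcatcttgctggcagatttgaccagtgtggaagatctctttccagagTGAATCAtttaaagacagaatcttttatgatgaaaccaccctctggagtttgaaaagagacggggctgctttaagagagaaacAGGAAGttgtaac
Slc37a2: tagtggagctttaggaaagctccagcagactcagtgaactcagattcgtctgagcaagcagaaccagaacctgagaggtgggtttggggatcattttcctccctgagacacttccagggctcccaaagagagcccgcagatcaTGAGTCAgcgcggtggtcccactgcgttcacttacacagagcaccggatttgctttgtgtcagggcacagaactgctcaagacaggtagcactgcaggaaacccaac

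Both strands were searched for 6 motifs. The AP-1 motif TGANTCA, present in 6.75% of the 32851 promoter windows of the same length, was found in Slc9a9 at position -96 and in Slc37a2 at -107, counting the base right before the start as -1. AGGAAG, a core of the PU.1 motif, was found in Slc9a9 at -13 and in Slc29a3 at -139, and 29.5% of all windows hold it. CACGTG, the E-box core of the lysosomal CLEAR element (6.02% of windows), TTGCNNAA of C/EBP factors (9.56%), the core of the interferon-stimulated response element, GAAA followed after any 2 bases by GAAA (2.98%), and the NF-kappaB motif, GGG followed after any 2 bases by TTTCC (1.41%), were in none of the 5 windows. Slc46a3 and Slc15a4 held none of the 6 motifs. These letters describe the windows alone. No matched motifs overlapped each other.

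Levels are given as CPM, counts brought to a common library total of 1000000 after scaling by the trimmed mean of M values (TMM) over all 54 libraries, and levels of different genes are not compared because the counts are not per length. Library totals were 1705930 to 11330781 counts, the shallowest being a WT sdCAM library. sdCAM markers (Mrc1, Cd163, Lyve1, Pf4, Cbr2, F13a1, Ms4a7 and Folr2) summed to 906 to 24800 CPM in sdCAM libraries and to 0.505 to 29.4 CPM in MG, so the labelled cell types matched their markers. The microglial markers (P2ry12, Tmem119, Sall1, Siglech, Slc2a5 and Gpr34) in sdCAM libraries were 2.47% to 35.8% of those in MG of the same mouse, apart from the tdT+ library of LPS mouse 5, which reached 79.5%. In untreated sdCAMs they were at 19.4% to 35.8% in WT and at 6.74% to 9.87% in Ccr2-/- mice. Their part in contrasts of these groups was not tested. For 2 reporter libraries after LPS, tdT- of mouse 1 and tdT+ of mouse 7, the sequencing index in the column name and that in the labels are crossed. Sex-linked transcripts disagreed between libraries of 1 mouse in 2 of 24 mice as named and in 0 of 24 when these 2 libraries were exchanged, so the results of the reporter sdCAMs after LPS are given first as named and then with the exchange. In Ccr2-/- mice the LPS titles name the other cell type than the characteristics do, and the characteristics, which the markers match, were used. The labels put WT and Ccr2-/- libraries in batch 1 and the reporter in batch 2, and 6 WT sdCAM libraries carry an IEG correction mark that the labels do not explain.

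Without LPS, Slc29a3 was higher in MG than in sdCAMs and Slc9a9 was higher in sdCAMs. A call below means a Benjamini-Hochberg adjusted p under 0.05 in edgeR's quasi-likelihood test and an absolute log2 fold change above 1. Between untreated sdCAMs and MG, 17.1% of 13136 tested genes were called in WT mice, 15% of 12890 in Ccr2-/- mice, and 11.1% of 13309 in the reporter, where the mean of tdT+ and tdT- sdCAMs was set against MG. All 3 sdCAM libraries were above all 3 MG libraries for 16.5%, 21.6% and 10.8% of these genes (in the reporter, all 6 above all 3) and below them for 24.2%, 21.1% and 7.48%. Beside these shares, 1 member was called in WT mice (2 with DESeq2), 4 in Ccr2-/- mice and 2 in the reporter (3 with DESeq2). Slc9a9 is among those called in Ccr2-/- mice and in the reporter, and its selection drew on these libraries.

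Slc29a3, the nucleoside exporter, was at 641, 666 and 730 CPM in untreated WT MG and at 215, 242 and 362 CPM in untreated WT sdCAMs, without overlap. In Ccr2-/- mice the values were 565, 621 and 641 CPM in MG against 225, 234 and 270 CPM in sdCAMs. After PBS in the reporter, MG held 534, 664 and 765 CPM, tdT+ sdCAMs 202, 271 and 303 CPM and tdT- sdCAMs 205, 235 and 259 CPM. The sdCAM level was lower in every library of the 3 lines, and the log2 difference from MG was -1.26 ± 0.33 (SE) in WT mice (edgeR adjusted p = 0.0162), -1.33 ± 0.22 in Ccr2-/- mice (0.000136) and -1.44 ± 0.30 in the reporter (0.00334). The WT call was lost without the untreated MG library of mouse 15 (adjusted p = 0.067), without the sdCAM library of mouse 9 (0.0634) and with the IEG mark as a covariate (-0.85, adjusted p = 0.119).

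Slc9a9, the endosomal proton exchanger, went the other way. Untreated Ccr2-/- sdCAMs were at 829, 993 and 1020 CPM against 299, 301 and 345 CPM in MG, and tdT- sdCAMs after PBS at 747, 759 and 774 CPM against 159, 284 and 341 CPM in reporter MG. The tdT+ sdCAMs after PBS lay between them at 507, 538 and 600 CPM, and untreated WT sdCAMs at 367, 411 and 482 CPM against 257, 274 and 320 CPM in WT MG. No sdCAM library overlapped MG in any of the 3 lines, and the log2 difference was 1.59 ± 0.27 in Ccr2-/- mice (edgeR adjusted p = 0.000242), 1.28 ± 0.36 in the reporter (0.025) and 0.63 ± 0.77 in WT mice (0.603). Slc9a9 was chosen for falls from these same levels, so these p values are not independent of that choice. The reporter call was lost without MG of mouse 175 (1.01, adjusted p = 0.113), MG of mouse 177 (0.0591) or tdT- of mouse 175 (0.0501).

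Slc15a3 did not keep the same order of cell types between genotypes. It was at 28.4, 36.6 and 39.5 CPM in untreated WT MG and at 41.1, 74.9 and 139 CPM in WT sdCAMs, all higher (log2 difference 1.39 ± 0.49, edgeR adjusted p = 0.0596). In Ccr2-/- mice MG held 43.2, 45.8 and 57.2 CPM and sdCAMs 20, 21.8 and 26.3 CPM, all lower (-1.10 ± 0.25, adjusted p = 0.00271). In the reporter the groups overlapped (-0.58 ± 0.38, adjusted p = 0.371). The WT value was 0.79 without the sdCAM library of mouse 9, the one at 139 CPM (adjusted p = 0.325), and it was called without that of mouse 15 (1.72, adjusted p = 0.0188). The Ccr2-/- call held without each library but 1 of the untreated MG (-0.98, adjusted p = 0.0173).

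Slc15a4 was lower in sdCAMs of every line, at 34.6, 48.6 and 113 CPM against 121, 170 and 184 CPM in untreated WT MG and at 61.4, 65.9 and 83.3 CPM against 125, 146 and 168 CPM in Ccr2-/- MG. Its log2 difference was called in Ccr2-/- mice (-1.06 ± 0.30, edgeR adjusted p = 0.0145), though the call was lost without each of 3 of the 6 libraries (adjusted p up to 0.0625), and it was -1.23 ± 0.50 in WT mice (0.0966) and -0.98 ± 0.36 in the reporter (0.0933). Slc46a3 was at 44.2, 51.5 and 107 CPM in WT sdCAMs against 160, 171 and 182 CPM in WT MG, without overlap (-1.26 ± 0.54, adjusted p = 0.114). In Ccr2-/- mice its sdCAM values of 143, 159 and 201 CPM overlapped the 189, 197 and 225 CPM of MG (-0.28 ± 0.58, adjusted p = 0.796). Slc37a2 was likewise not called, with log2 differences of -0.93 to -0.13 over the 3 lines.

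**Figure D1:**
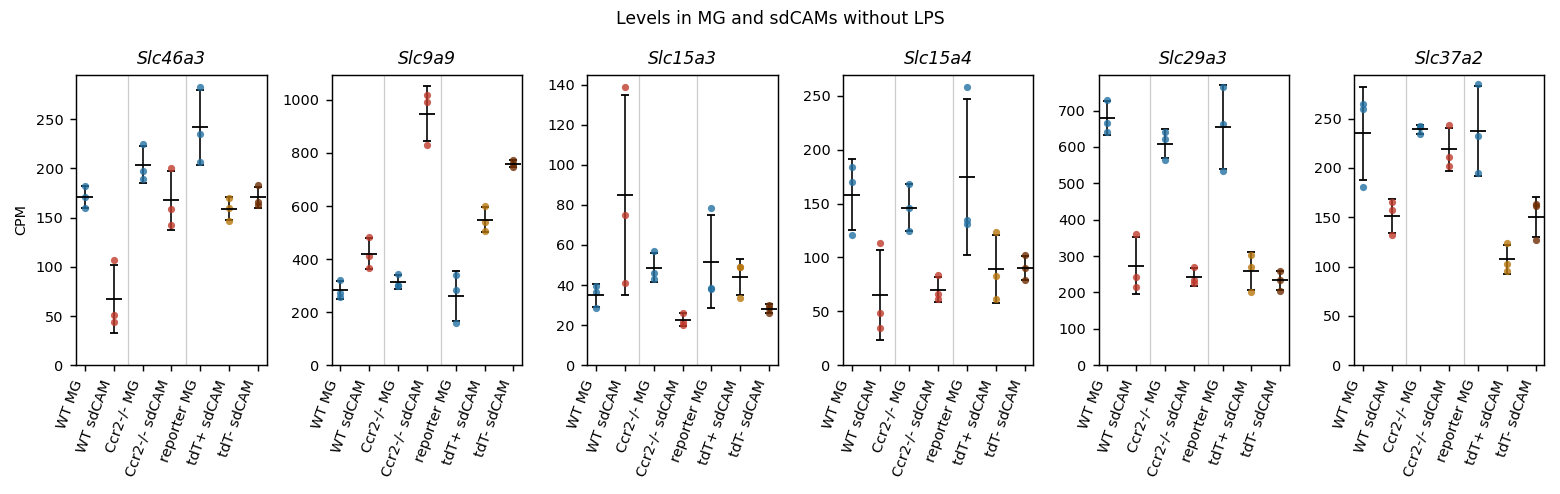
CPM of each member in the libraries without LPS, by population (points, 3 libraries each; bars, mean ± SD). Slc29a3 lies near 600 to 700 CPM in MG and near 250 CPM in sdCAMs of all 3 lines, whereas Slc9a9 is highest in Ccr2-/- sdCAMs at 946 ± 102 CPM.

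After LPS, the mean level of 5 members was lower and that of Slc15a3 higher in all 7 populations examined, with folds of 1.89 to 151. All 3 libraries after LPS were below all 3 without LPS for each of the 5 lower members in 7 of 7 populations, and Slc15a3 was above them in 6 of 7. Slc46a3 and Slc9a9 are among these 5 and were chosen for such falls. The shares of genes in this paragraph are therefore given beside the other 4 members only. These 4 were also chosen with earlier results of these data known, so their counts are descriptions. Genes that fell without overlap made up 23% of those tested in WT MG, 20.3% in WT sdCAMs, 27.1% in Ccr2-/- MG, 24.2% in Ccr2-/- sdCAMs, 11% in reporter MG, 19% in tdT+ and 26% in tdT- sdCAMs. Genes that rose without overlap made up 21.2%, 15.8%, 26.3%, 24%, 14.2%, 17.3% and 20.2% in the same order. Called genes were 16.7% of 11789 in WT MG, 6.32% of 10504 in WT sdCAMs, 19.4% of 11558 in Ccr2-/- MG, 21.5% of 11941 in Ccr2-/- sdCAMs, 1.08% of 10882 in reporter MG, and 13.4% in tdT+ and 26.5% in tdT- sdCAMs of 12708. Of the 4 members tested, 4, 1, 2, 4, 1, 3 and 4 were called in that order (4, 2, 2, 4, 2, 3 and 4 with DESeq2). After the exchange, 8.63% of genes and 2 of 4 members were called in tdT+ and 11.9% and 3 of 4 in tdT- sdCAMs. The same 5 members were then still lower without overlap, as were 16.2% of genes in tdT+ and 22.6% in tdT- sdCAMs. Slc15a3 was still higher in both, as were 14.3% and 16.5% of genes. Of the BLZ945+LPS libraries of WT and Ccr2-/- mice, 1 WT sdCAM library overlapped those without LPS for Slc15a4 (56.5 CPM) and 1 for Slc15a3 (117 CPM). In bulk RNA, fewer cells of a type and less RNA per cell cannot be told apart.

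**Figure D2:**
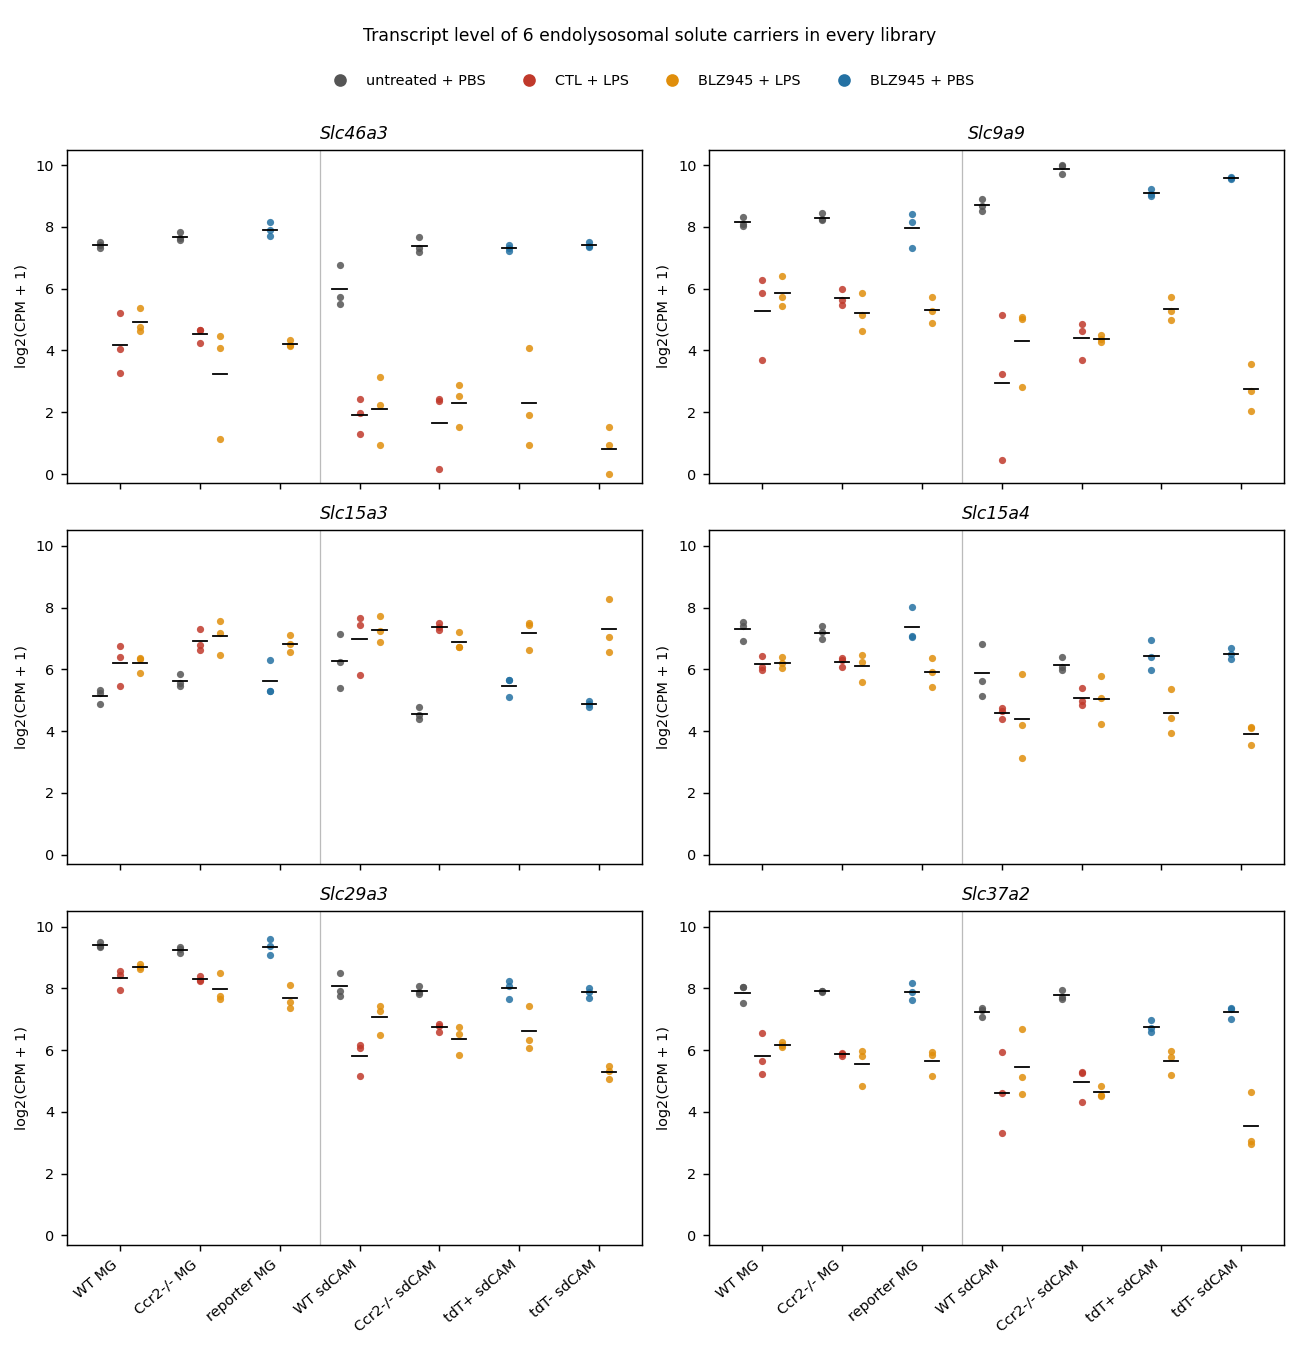
log2(CPM + 1) of each member in every library, by group, with MG to the left and sdCAMs to the right of the grey line and a dash at each group mean. In 5 panels the libraries after CTL+LPS, or after BLZ945+LPS in the reporter, lie below those without LPS in every population, and in the Slc15a3 panel they lie above except in WT sdCAMs.

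Other transcripts moved with LPS in the same libraries. The summed microglial markers were 18500 to 19600 CPM in untreated WT MG and 1770 to 4360 CPM after CTL+LPS, 27900 to 28100 and 4450 to 5020 CPM in Ccr2-/- MG, and 17500 to 23400 and 2710 to 4890 CPM in reporter MG. All 6 markers were called lower in WT and in Ccr2-/- MG and 3 of them in reporter MG. In sdCAMs the same sum went from between 3820 and 6620 CPM to between 390 and 784 CPM in WT mice (4 of 6 called lower) and from between 2720 and 3640 to between 351 and 553 CPM in Ccr2-/- mice (4). It went from between 2160 and 2660 to between 160 and 255 CPM in tdT- (5) and from between 1810 and 1900 to between 254 and 2310 CPM in tdT+ cells (1 lower and 1 higher). The 8 sdCAM markers summed to 17700 to 18700 CPM in untreated Ccr2-/- sdCAMs and 7490 to 8090 CPM after CTL+LPS, with 6 called lower. They went from between 13500 and 16000 to between 5760 and 8080 CPM in tdT- (2 called lower) and from between 9650 and 10900 to between 906 and 6490 CPM in tdT+ cells (4). The WT sums overlapped, at 8650 to 15800 CPM untreated and 11400 to 24800 CPM after CTL+LPS (0 called). The 6 neutrophil markers (Ly6g, Retnlg, Ngp, Camp, S100a8 and S100a9) summed to 1.3 to 92.5 CPM in untreated WT sdCAMs and to 341 to 3110 CPM after CTL+LPS, with Ly6g, Retnlg and Ngp at 0 in the latter. The sum went from between 1.42 and 3.09 CPM to between 61.3 and 98.4 CPM in Ccr2-/- sdCAMs, with Ly6g and Retnlg at 0, and from 0 to between 553 and 2160 CPM in tdT- sdCAMs, with Ly6g, Retnlg and Ngp at 0. In tdT+ sdCAMs after LPS the sum was 8.31 to 46 CPM with only S100a8 above 0, and in MG after CTL+LPS or, in the reporter, BLZ945+LPS it was 0.639 to 9.32 CPM. Monocyte markers (Ly6c2, Ccr2, Plac8 and Chil3) went from between 145 and 292 CPM to between 8.89 and 76.3 CPM in tdT- sdCAMs and from between 233 and 289 CPM to between 9.86 and 26.6 CPM in tdT+ sdCAMs. Most of this sum after PBS was Ccr2, at 144 to 197 CPM in tdT- and 233 to 284 CPM in tdT+ sdCAMs. Chil3 was at 0 in both after PBS, and Ly6c2 at 0 in tdT+ sdCAMs. Neuronal markers (Snap25, Rbfox3 and Syt1) went from between 8.08 and 17.7 CPM to between 60.3 and 124 CPM in tdT- sdCAMs. After the exchange, the neutrophil sum with LPS was 8.31 to 2160 CPM in tdT+ and 28.6 to 1020 CPM in tdT- cells. In the same order the monocyte sum was 9.86 to 76.3 and 8.89 to 16.5 CPM, the neuronal sum 11.4 to 124 and 46.6 to 87.6 CPM. The sdCAM sum was then 906 to 6090 and 5760 to 8080 CPM, and the microglial sum 185 to 2310 and 160 to 255 CPM. The part of these transcripts in the members' values was not tested.

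Slc46a3, the lysosomal exporter and the first of the members chosen for their falls, was 8.34-fold to 151-fold lower after LPS. In WT MG it was at 160, 171 and 182 CPM untreated and at 8.73, 15.4 and 36.4 CPM after CTL+LPS, a log2 difference of -3.06 ± 0.41 (SE). In Ccr2-/- MG it went from 189, 197 and 225 CPM to 17.8, 24.1 and 24.4 CPM, and in reporter MG from 207, 235 and 283 CPM after PBS to 16.8, 17.1 and 19.1 CPM after LPS. The 3 lines of MG thus reached a similar range, with log2 differences of -3.17 ± 0.53 in Ccr2-/- and -3.80 ± 0.35 in reporter MG. In WT sdCAMs it went from 44.2, 51.5 and 107 CPM to 1.43, 2.91 and 4.43 CPM (4, 10 and 4 counts), and in Ccr2-/- sdCAMs from 143, 159 and 201 CPM to 0.125, 4.18 and 4.41 CPM (1, 32 and 41 counts). In tdT- sdCAMs it went from 163, 166 and 183 CPM to 0, 0.931 and 1.88 CPM (0, 3 and 8 counts; 3 counts would be 1.27 CPM in the library at 0). In tdT+ sdCAMs it went from 147, 160 and 170 CPM to 0.914, 2.77 and 15.8 CPM, where the highest value is the library of mouse 5 with the high microglial markers. No library after LPS reached the lowest one without LPS in any population. The log2 differences in sdCAMs were -4.42 ± 0.86 (WT), -5.83 ± 0.69 (Ccr2-/-), -4.48 ± 0.73 (tdT+) and -7.24 ± 0.88 (tdT-), and without tdT+ mouse 5 the tdT+ value was -6.44. The values were -4.51 (tdT+) and -7.28 (tdT-) with the conflicting libraries exchanged. Apart from tdT+ mouse 5 (112 counts) and 2 of the Ccr2-/- libraries, these sdCAM libraries held at most 10 counts after LPS.

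Slc9a9, chosen for the same reason, was 5.71-fold to 109-fold lower. It went from 257, 274 and 320 CPM to 12, 56.9 and 77.4 CPM in WT MG, from 299, 301 and 345 CPM to 42.9, 48.4 and 62.6 CPM in Ccr2-/- MG, and from 159, 284 and 341 CPM to 28.6, 37.6 and 52.4 CPM in reporter MG. Their log2 differences were -2.51 ± 0.49, -2.58 ± 0.26 and -2.75 ± 0.43. In Ccr2-/- sdCAMs, where it had been highest, it went from 829, 993 and 1020 CPM to 11.9, 23.8 and 28.1 CPM (-5.47 ± 0.30). In WT sdCAMs the 367, 411 and 482 CPM untreated became 0.357, 8.45 and 34.3 CPM (-4.78 ± 1.13), a wide spread in which the lowest library was that of mouse 1. In tdT- sdCAMs 747 to 774 CPM became 3.1, 5.5 and 10.8 CPM (-6.77 ± 0.46), and in tdT+ sdCAMs 507 to 600 CPM became 30.5, 38.1 and 52.1 CPM (-3.73 ± 0.39). With the conflicting libraries exchanged the values were -5.33 in tdT- and -4.22 in tdT+ sdCAMs, and -5.01 in tdT+ sdCAMs without mouse 5 as well. The sdCAM libraries, which had been above MG without LPS, overlapped MG or lay below it after LPS in each line.

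Slc15a3, the peptide and histidine transporter, was the member that rose. In Ccr2-/- sdCAMs it went from 20, 21.8 and 26.3 CPM untreated to 153, 164 and 179 CPM after CTL+LPS (log2 difference 2.86 ± 0.21, edgeR adjusted p = 8.54e-07), and in tdT- sdCAMs from 26.2, 28.4 and 30.3 CPM to 93.4, 131 and 312 CPM (2.74 ± 0.44, adjusted p = 0.000308). In tdT+ sdCAMs 33.7, 49 and 49.1 CPM became 96.8, 174 and 179 CPM (1.81 ± 0.43, adjusted p = 0.0107). None of these groups overlapped. It also rose in WT MG, from 28.4, 36.6 and 39.5 CPM to 42.8, 83.3 and 106 CPM (1.18 ± 0.29, adjusted p = 0.00876), and in Ccr2-/- MG, from 43.2, 45.8 and 57.2 CPM to 98.6, 110 and 156 CPM (1.35 ± 0.25, adjusted p = 0.000795). Reporter MG did not overlap either, with 38, 38.4 and 78.5 CPM after PBS and 94.3, 112 and 136 CPM after LPS, but the test did not pass (1.10 ± 0.46, adjusted p = 0.343). In WT sdCAMs the 41.1, 74.9 and 139 CPM untreated overlapped the 55.3, 172 and 201 CPM after CTL+LPS (0.92 ± 0.59, adjusted p = 0.366). The call in WT MG was lost without CTL+LPS mouse 1 (0.90, adjusted p = 0.0231, under the fold limit), and that in tdT+ sdCAMs without PBS mouse 175 (1.64, adjusted p = 0.0506). The tdT+ and tdT- calls held with the conflicting libraries exchanged (1.52, adjusted p = 0.0378, and 2.94, adjusted p = 0.00135).

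Slc15a4, from the same family as Slc15a3, was lower after LPS in all 7 populations and called in 4. In WT MG it went from 121, 170 and 184 CPM to 62.4, 66.7 and 86.1 CPM (-1.11 ± 0.19, edgeR adjusted p = 0.00123), and in tdT- sdCAMs from 79.1, 90 and 102 CPM to 10.6, 16 and 16.4 CPM (-2.57 ± 0.44, adjusted p = 0.000523). In tdT+ sdCAMs it went from 61.6, 83.2 and 124 CPM to 14.3, 20.4 and 40.4 CPM (-1.79 ± 0.43, adjusted p = 0.0117), and in Ccr2-/- sdCAMs from 61.4, 65.9 and 83.3 CPM to 27.6, 30.7 and 41.1 CPM (-1.08 ± 0.35, adjusted p = 0.0353). The groups did not overlap, but the Ccr2-/- sdCAM call was lost without each of 5 of the 6 libraries (adjusted p up to 0.129). In Ccr2-/- MG the change passed the p threshold but not the fold limit (-0.93 ± 0.21, adjusted p = 0.00331). It was -1.27 ± 0.69 in WT sdCAMs (adjusted p = 0.283) and -1.56 ± 0.46 in reporter MG (0.162). The WT MG call was lost without untreated mouse 15 (-0.99, adjusted p = 0.00841, under the fold limit), and the tdT+ call without LPS mouse 1, LPS mouse 7 or PBS mouse 175 (adjusted p = 0.0553, 0.0599 and 0.0585). With the conflicting libraries exchanged both reporter calls held (tdT+ -1.87, adjusted p = 0.0276, and tdT- -2.46, adjusted p = 0.00641).

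Slc29a3 was lower after LPS in all 7 populations and called in 5. It went from 641, 666 and 730 CPM to 248, 346 and 375 CPM in WT MG (-1.04 ± 0.16, edgeR adjusted p = 0.000598). In Ccr2-/- MG the values were 565, 621 and 641 CPM untreated and 298, 308 and 337 CPM after CTL+LPS, just under the fold limit (-0.92 ± 0.19, adjusted p = 0.00213), and in reporter MG 534, 664 and 765 CPM and 162, 189 and 272 CPM (-1.69 ± 0.34, adjusted p = 0.0728). In sdCAMs it went from 225, 234 and 270 CPM to 95.8, 108 and 114 CPM in Ccr2-/- mice (-1.20 ± 0.22, adjusted p = 0.00125) and from 205, 235 and 259 CPM to 32.3, 38.9 and 44 CPM in tdT- cells (-2.53 ± 0.37, adjusted p = 0.000135). WT sdCAMs went from 215, 242 and 362 CPM to 34.7, 66.1 and 70.8 CPM (-2.07 ± 0.46, adjusted p = 0.0266), and tdT+ sdCAMs from 202, 271 and 303 CPM to 66.6, 78.9 and 172 CPM (-1.25 ± 0.35, adjusted p = 0.0285). No groups overlapped. The WT sdCAM call was lost without any 1 of its 6 libraries (adjusted p 0.0577 to 0.122), and the WT MG call without CTL+LPS mouse 1 (-0.88) or untreated mouse 15 (-0.99), each under the fold limit. The tdT+ call was lost without LPS mouse 1 or 7 or PBS mouse 174 or 177 (adjusted p 0.0777 to 0.125) and with the libraries exchanged (-1.48, adjusted p = 0.0903), whereas tdT- held (-2.05, adjusted p = 0.0229).

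Slc37a2, of the sugar-phosphate exchanger family, was lower in all 7 populations and called in 5. It fell from 181, 260 and 265 CPM to 36.8, 48.9 and 93.1 CPM in WT MG (-1.96 ± 0.29, edgeR adjusted p = 0.000463) and from 234, 241 and 242 CPM to 55.3, 57.6 and 59 CPM in Ccr2-/- MG (-2.03 ± 0.23, adjusted p = 1.42e-05). The Ccr2-/- MG libraries lay within a few CPM of each other in both groups. In Ccr2-/- sdCAMs 202, 211 and 243 CPM became 18.8, 37.5 and 38.5 CPM (-2.79 ± 0.26, adjusted p = 5.94e-06), and in tdT- sdCAMs 127, 161 and 163 CPM became 6.82, 7.3 and 24.1 CPM (-3.51 ± 0.47, adjusted p = 6.56e-05). Reporter MG went from 195, 232 and 285 CPM to 34.9, 56.5 and 59.9 CPM (-2.26 ± 0.38, adjusted p = 0.042), a call that was lost without each of 5 of the 6 libraries (adjusted p up to 0.285). WT sdCAMs (-2.14 ± 0.71, adjusted p = 0.0935) and tdT+ sdCAMs (-1.06 ± 0.43, adjusted p = 0.116) did not overlap and were not called. With the conflicting libraries exchanged the tdT- call was lost as well (-2.21, adjusted p = 0.0547), and the tdT+ value was -1.71 (adjusted p = 0.134).

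**Figure D3:**
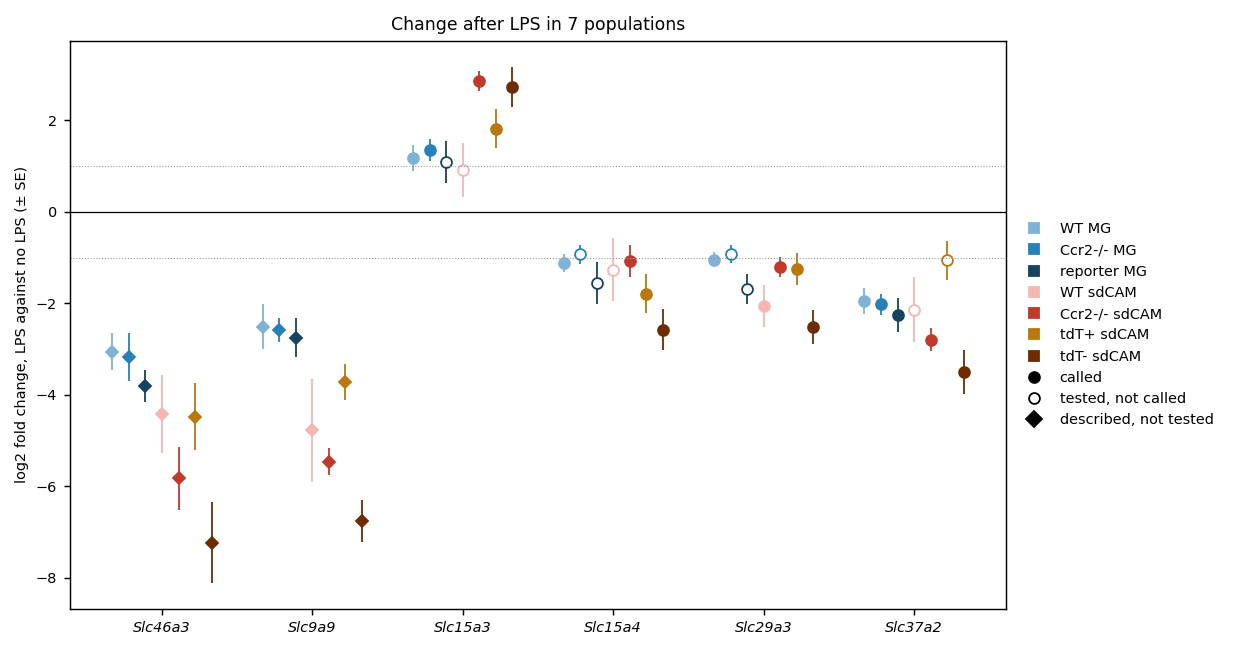
log2 fold change ± SE of each member after LPS in the 7 populations, as deposited columns are named. Filled circles passed the call, open circles were tested and did not, and diamonds are Slc46a3 and Slc9a9, which were chosen for their falls and not tested. Slc46a3 spans -7.24 to -3.06, Slc9a9 -6.77 to -2.51 and Slc15a3 0.92 to 2.86.

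Whether LPS acted differently on sdCAMs and MG was tested by the interaction of cell type and LPS in the WT and Ccr2-/- tables. In Ccr2-/- mice, where 6.88% of 12890 genes were called, Slc15a3 was called: it rose by 1.54 ± 0.34 more on the log2 scale in sdCAMs than in MG (95% interval 0.82 to 2.26, edgeR adjusted p = 0.00721). It held when each of the 12 libraries was left out in turn (1.38 to 1.72). The other 3 tested members were at -0.73 to -0.12 and not called. The same term, as a description with no test, was -2.63 ± 0.91 for Slc46a3 and -2.86 ± 0.39 for Slc9a9, a deeper fall in sdCAMs. In WT mice, where 1.32% of 13136 genes were called, 0 of 4 members were called with edgeR and 0 with DESeq2. Their values were -1.10 to -0.23, 1 of 4 had an unadjusted p under 0.05, and the lowest adjusted p was 0.223. Slc15a3, called in Ccr2-/- mice, was at -0.35 ± 0.68 in WT mice (edgeR adjusted p = 0.849).

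Repopulation after BLZ945 was compared with CTL treatment among LPS-injected mice, and no member was called in WT or Ccr2-/- MG or sdCAMs. Called genes were 0.0763%, 0%, 0.0173% and 0% of those tested in WT MG, WT sdCAMs, Ccr2-/- MG and Ccr2-/- sdCAMs, so few genes of any kind were called. The 24 values of the 6 members were -0.78 to 1.16, 14 of them above 0 and 10 below, with 95% intervals reaching from -1.88 to 2.87, so the intervals still hold sizeable differences in both directions. Of the 16 values of the 4 tested members, 3 had an unadjusted p under 0.05 with edgeR, the lowest adjusted p was 0.549, and DESeq2 called 0. The 3 values were Slc29a3 in WT MG, at 393, 408 and 442 CPM after BLZ945+LPS and 248, 346 and 375 CPM after CTL+LPS (0.36, interval 0.02 to 0.71), Slc29a3 in WT sdCAMs, at 89, 153 and 170 CPM against 34.7, 66.1 and 70.8 CPM (1.16, interval 0.17 to 2.14), and Slc15a3 in Ccr2-/- sdCAMs, at 104, 105 and 146 CPM against 153, 164 and 179 CPM (-0.49, interval -0.91 to -0.06). These were also the 3 whose groups did not overlap, where 6.09%, 10.1% and 6.88% of all genes did not overlap in the same direction in those comparisons. In WT sdCAMs the microglial markers were 23.5% to 26.3% of those in MG of the same mouse after BLZ945+LPS and 13.7% to 17.3% after CTL+LPS. Slc29a3 was higher in MG than in sdCAMs, and the part of these markers in its WT sdCAM value was not tested. The CTL+LPS libraries are shared with the LPS responses above, so the comparisons are not independent. Slc46a3 after BLZ945+LPS was at 23.7, 26.1 and 40.1 CPM in WT MG and 0.898, 3.72 and 7.79 CPM in WT sdCAMs, and Slc9a9 at 42.8, 52.2 and 84.4 CPM and 6.09, 31.5 and 33.2 CPM, all of them overlapping CTL+LPS.

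Between repopulated sdCAMs of the reporter, tdT+ and tdT- cells after PBS gave no called member, where 0.0236% of 12708 genes were called. The 6 log2 differences of tdT+ from tdT- were -0.48 to 0.64 (95% intervals from -1.41 to 1.52), with 0 at an unadjusted p under 0.05 in edgeR and 0 called by DESeq2. Slc9a9 at 507 to 600 CPM in tdT+ against 747 to 774 CPM in tdT- and Slc37a2 at 95.6 to 124 against 127 to 163 CPM did not overlap, as 7.66% of genes did in that direction. Slc15a3 was higher in tdT+ without overlap, at 33.7 to 49.1 against 26.2 to 30.3 CPM, as were 5.58% of genes. T cell markers (Cd3e, Cd3d and Cd3g) summed to 6.62 to 119 CPM in tdT+ and 0.106 to 14.6 CPM in tdT- sdCAMs after PBS, and their part was not tested.

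After LPS, 10.6% of 12708 genes and 2 of the 4 tested members (2 with DESeq2) were called between tdT+ and tdT- sdCAMs as the columns are named. None of these edgeR calls held after the exchange, under which sex-linked transcripts agreed within every mouse. Slc37a2 was at 35.3, 53.4 and 62.1 against 6.82, 7.3 and 24.1 CPM (log2 difference 1.97 ± 0.45, edgeR adjusted p = 0.0107) and Slc29a3 at 66.6, 78.9 and 172 against 32.3, 38.9 and 44 CPM (1.42 ± 0.36, adjusted p = 0.0181). Slc15a3 (-0.29 ± 0.41, adjusted p = 0.725) and Slc15a4 (0.77 ± 0.43, adjusted p = 0.294) were not called. Slc9a9 and Slc46a3 were picked for their falls in libraries that include these, and their values are a description. Slc9a9 was at 30.5, 38.1 and 52.1 CPM in tdT+ and 3.1, 5.5 and 10.8 CPM in tdT- sdCAMs (2.57 ± 0.40), and Slc46a3 differed by 2.66 ± 0.84, or by 0.75 without tdT+ mouse 5. Slc9a9, Slc37a2 and Slc29a3 were higher in tdT+ cells without overlap, as were 14.7% of genes. The Slc29a3 call was lost without tdT+ mouse 5 (0.93, adjusted p = 0.0771) or tdT- mouse 1 (1.36, adjusted p = 0.0518).

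With the conflicting libraries exchanged, no tested member and none of the 12708 genes was called between tdT+ and tdT- sdCAMs after LPS with edgeR, where 816 had an unadjusted p under 0.05, and no member was without overlap. Slc37a2 was then 0.02 (edgeR adjusted p = 1), Slc29a3 0.72 (0.886), Slc15a4 0.58 (0.911) and Slc15a3 -0.79 (0.797), and Slc9a9 0.64 and Slc46a3 2.67 as a description. When tdT+ mouse 5 was also left out, Slc9a9 was -0.12, Slc37a2 -0.58, Slc29a3 -0.13, Slc46a3 0.80, Slc15a3 -0.64 and Slc15a4 -0.0302, so Slc9a9, Slc37a2, Slc29a3 and Slc15a4 changed sign. DESeq2 was not run on the exchanged columns. The difference between tdT+ and tdT- cells after LPS therefore depended on which of the names of these 2 libraries was followed. Sex-linked transcripts agreed within every mouse only with the exchange, under which no gene was called. The lower level of 5 members and the higher level of Slc15a3 after LPS kept their direction in both populations under either assignment. Of the 6 libraries, tdT+ of mouse 5, whose microglial markers were 79.5% of those in MG of the same mouse, was the highest for Slc46a3, Slc9a9, Slc29a3 and Slc15a4. As named, the log2 difference of Slc9a9 between tdT+ and tdT- cells was 2.39 without it.

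**Figure D4:**
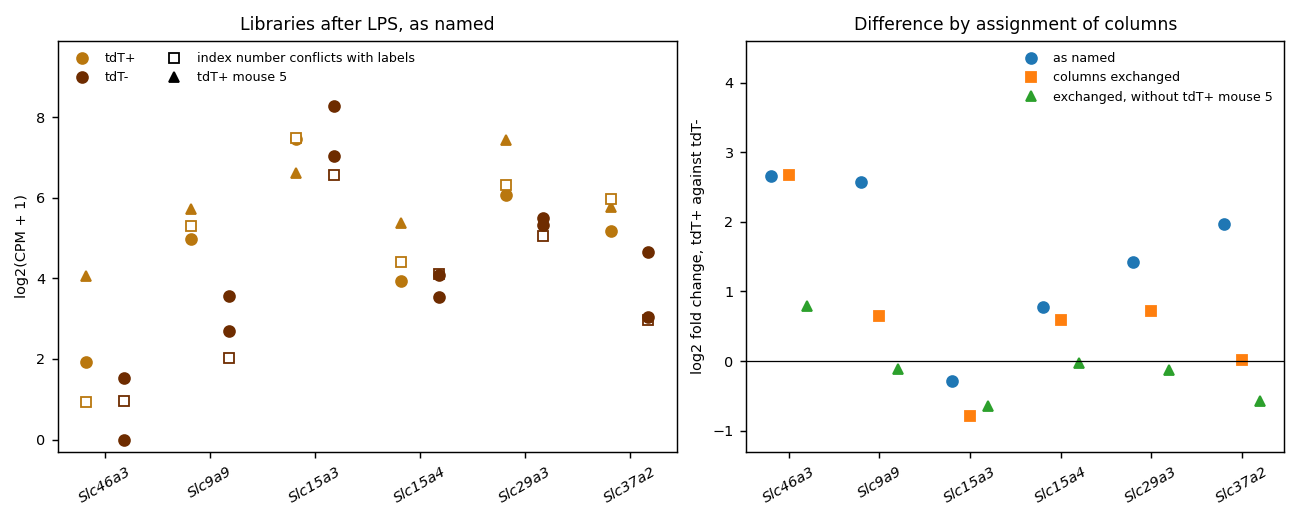
Left, CPM of the members in tdT+ and tdT- sdCAMs after LPS as the columns are named, with open squares for the libraries whose index conflicts with the labels. Right, log2 difference of tdT+ from tdT- as named, with these libraries exchanged, and exchanged without tdT+ mouse 5; Slc9a9 moves from 2.57 to 0.64 and -0.12.

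Ccr2-/- and WT mice were compared without LPS, where genotype, table and library number range (1 to 18 for WT and 37 to 54 for Ccr2-/-) cannot be told apart. Ccr2 itself was at 2.36 to 5.28 CPM in untreated Ccr2-/- sdCAMs and at 16.7 to 49.9 CPM in WT sdCAMs. In untreated MG it overlapped, at 4.8 to 6.59 CPM in Ccr2-/- and 3.15 to 8.68 CPM in WT mice. After CTL+LPS it was at 3.12 to 5.49 CPM in Ccr2-/- sdCAMs and at 0 to 0.715 CPM in WT sdCAMs. In MG 0 of 6 members were called, with log2 differences of -0.17 to 0.47 (Slc46a3 and Slc15a3 higher without overlap, as were 22.4% of genes, and Slc29a3 lower, as were 19.1%), 0 at an unadjusted p under 0.05 in edgeR and 0 by DESeq2, where 5.52% of genes were called. In sdCAMs, where 9.5% were called, Slc15a3 was lower at 20, 21.8 and 26.3 CPM in Ccr2-/- mice against 41.1, 74.9 and 139 CPM in WT mice (-1.95 ± 0.46, edgeR adjusted p = 0.015), without overlap, as were 12.9% of genes. Slc9a9 (829 to 1020 against 367 to 482 CPM; 1.16 ± 0.72, adjusted p = 0.317), Slc46a3 (143 to 201 against 44.2 to 107 CPM; 1.28 ± 0.71, adjusted p = 0.257) and Slc37a2 (202 to 243 against 132 to 165 CPM; 0.51 ± 0.53, adjusted p = 0.578) were higher without overlap, as were 19% of genes, and were not called. That call was lost without WT mouse 9 (-1.23, adjusted p = 0.12), without each of the 3 untreated Ccr2-/- libraries (adjusted p 0.0577 to 0.0761) and with the IEG mark as a covariate (-1.56, adjusted p = 0.101). The untreated sdCAMs also differed in microglial markers, at 19.4% to 35.8% of those in MG in WT and 6.74% to 9.87% in Ccr2-/- mice. The genotype by LPS interaction, where 0% of genes were called, gave 0 called members in MG and in sdCAMs with edgeR and DESeq2. Its 12 values were -1.16 to 2.14, and the lowest adjusted p of the tested members was 0.217, with 2 sdCAM values and 0 MG values at an unadjusted p under 0.05.

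Over all 18 groups the order of the group means was close for most neighbours. Of 17 neighbouring pairs in that order, the libraries of both groups were separate in 5 for Slc9a9, 3 for Slc46a3, 3 for Slc37a2, 2 for Slc15a4, 2 for Slc29a3 and 0 for Slc15a3. Slc9a9 stepped down without overlap from Ccr2-/- sdCAMs (946 CPM) to tdT- (760), tdT+ (549) and WT sdCAMs (420) and then to Ccr2-/- MG (315), all without LPS, and again from reporter MG after PBS (261) to WT MG after BLZ945+LPS (59.8). For Slc46a3 the highest mean was 241 CPM in reporter MG after PBS and the lowest 0.938 CPM in tdT- sdCAMs after LPS. As the columns are named, tdT- sdCAMs after LPS were also lowest for Slc9a9 (6.48 CPM), Slc15a4 (14.3), Slc29a3 (38.4) and Slc37a2 (12.7), and highest for Slc15a3 (179 CPM). After the exchange they were again lowest for Slc46a3 (0.932 CPM), Slc15a4 (15.7) and Slc29a3 (53.9) and highest for Slc15a3 (208 CPM). The lowest mean was then that of WT sdCAMs after CTL+LPS for Slc9a9 (14.4 CPM) and of Ccr2-/- sdCAMs after BLZ945+LPS for Slc37a2 (24 CPM). For Slc15a4 1 neighbouring pair was then separate. Untreated Ccr2-/- sdCAMs were highest for Slc9a9 and lowest for Slc15a3 (22.7 CPM).

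Group means of the 5 members that were lower after LPS moved together, with Pearson correlations of their log2 levels of 0.702 to 0.952 over the 18 groups, while Slc15a3 ran opposite to them (-0.915 to -0.642). The 5 are grouped by their lower level after LPS, for which Slc46a3 and Slc9a9 were chosen, so correlations of these signs follow in part from the grouping. The 18 groups also share LPS treatment, libraries and mice, so the values are a description. After the exchange they were 0.691 to 0.961 and -0.918 to -0.652. As the columns are named, among 10872 genes, those most like Slc46a3 over the 18 groups were Camk1 (r = 0.981), Ptpro (0.972) and Hpgd (0.969), and those most like Slc9a9 were Gpr160 (0.981), Lipa (0.978), which encodes lysosomal acid lipase, and Fads1 (0.976). Slc15a3 was most like Atf4 (0.924), Slc13a3 (0.919) and Edn1 (0.917). Ckb (0.977), Tifab (0.975) and Ccng2 (0.975) were most like Slc15a4. For Slc29a3 they were Mfng (0.975), Ccng2 (0.974) and Mtus1 (0.972), and for Slc37a2 Eef2k (0.976), Sft2d2 (0.971) and Blnk (0.971). After the exchange Ighm (0.97) replaced Hpgd for Slc46a3, Ptpra (0.975) replaced Fads1 for Slc9a9 and Foxp4 (0.914) replaced Edn1 for Slc15a3. Rnf167 (0.975) replaced Ccng2 for Slc15a4, Pld1 (0.977) replaced Mtus1 for Slc29a3 and Gm30329 (0.967) replaced Blnk for Slc37a2. The other genes named stayed.

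Other endolysosomal transporters and channels, a list of 29 genes, did not all move as the members did. After LPS 3 were called higher and 2 lower in WT MG, 0 and 2 of 28 tested in WT sdCAMs, 3 and 2 in Ccr2-/- MG, 5 and 7 in Ccr2-/- sdCAMs, 0 and 0 in reporter MG, 4 and 3 in tdT+ and 1 and 8 in tdT- sdCAMs. The list's median log2 change lay between -0.84 (tdT- sdCAMs, where the median of all genes was 0.04) and 0.03 (Ccr2-/- MG, all genes 0.00). Slc2a6, a lysosomal hexose transporter, rose from 2.25 ± 0.528 to 19.9 ± 1.75 CPM (mean ± SD, n = 3) in WT MG (3.18 ± 0.27, edgeR adjusted p = 8.74e-06) and rose by 4.96 ± 0.60 in Ccr2-/- sdCAMs (adjusted p = 4.95e-05). The endolysosomal cation channels went apart: Tpcn2 rose in WT MG (2.19, adjusted p = 5.86e-05) and Ccr2-/- MG (1.85, adjusted p = 8.24e-06), and Tpcn1 fell in both (-1.94, adjusted p = 0.000397, and -2.60, adjusted p = 0.000845). Slc11a1 (Nramp1), the phagosomal metal transporter, rose in Ccr2-/- sdCAMs (1.84, adjusted p = 7.39e-07). Slc17a5, the lysosomal sialic acid exporter, fell there (-2.06, adjusted p = 7.92e-05) and in tdT- sdCAMs (-3.57, adjusted p = 0.00124). After the exchange, 0 of the list were called higher and 1 lower in tdT+ and 0 and 3 in tdT- sdCAMs. Of all genes 8.63% and 11.9% were then called in tdT+ and tdT- sdCAMs in either direction. Slc17a5 in tdT- sdCAMs was then not called (-2.37, adjusted p = 0.0842). Without LPS 1 was higher and 3 lower in sdCAMs than in MG of WT mice, 3 and 1 in Ccr2-/- mice and 0 and 3 in the reporter. The shares of all genes were 11.9% and 5.2% in WT mice, 8.53% and 6.43% in Ccr2-/- mice and 6.09% and 4.96% in the reporter.

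The V-ATPase, the proton pump that acidifies endosomes and lysosomes, was represented by 16 genes, 15 of them tested. After LPS 0 were called in MG of any of the 3 lines, with list medians of 0.02, -0.12 and -0.29 in WT, Ccr2-/- and reporter MG. In sdCAMs 1 rose and 1 fell in WT and in Ccr2-/- mice, 0 rose and 1 fell in tdT+, and 3 rose and 5 fell in tdT- cells. After the exchange 0 were called in tdT+, and 0 rose and 2 fell in tdT- cells. The shares of all genes called are those given with the transporters above. Atp6v0a1, the membrane subunit of the pump, went from 535 ± 66.9 to 56.1 ± 18.5 CPM (mean ± SD, n = 3) in Ccr2-/- sdCAMs (-3.26, edgeR adjusted p = 1.22e-06) and from 259 ± 29.5 to 42.3 ± 12.9 CPM in WT sdCAMs (-2.41, adjusted p = 0.0149). Its fall was greater in sdCAMs than in MG by the interaction test in both lines, at -3.10 in Ccr2-/- (adjusted p = 1.21e-05) and -2.21 in WT mice (adjusted p = 0.0246).

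Among 18 paralogs of the members, 12 were tested (9 in WT sdCAMs). After LPS 1 rose and 2 fell in WT MG, 0 and 1 in WT sdCAMs, 3 and 2 in Ccr2-/- MG, 1 and 4 in Ccr2-/- sdCAMs, 0 and 0 in reporter MG, 2 and 1 in tdT+ and 0 and 2 in tdT- sdCAMs. Slc46a1, the folate transporter related to Slc46a3, fell in WT MG (-1.45, edgeR adjusted p = 0.000483), Ccr2-/- MG (-1.47, adjusted p = 0.00107) and Ccr2-/- sdCAMs (-2.58, adjusted p = 0.00216). Slc29a1, the plasma membrane nucleoside transporter, fell in all 4 sdCAM populations (-2.51 to -1.41). Its fall was called with the conflicting libraries exchanged too (-2.64 in tdT+, adjusted p = 0.00155, and -2.33 in tdT-, adjusted p = 0.00191). Of the 12 paralogs 1 then rose and 1 fell in tdT+ and 0 and 3 in tdT- sdCAMs. These counts too stand beside the shares of all genes given with the transporters. Slc15a2, the peptide transporter of the plasma membrane, was higher in sdCAMs than in MG without LPS (7.32 in Ccr2-/- mice, adjusted p = 1.79e-05) and fell from 213 ± 44.4 to 4.72 ± 3.66 CPM in Ccr2-/- sdCAMs (-5.50, adjusted p = 3.01e-05).

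Of the 12 genes for endosomal nucleic acid and peptidoglycan sensing, the setting in which Slc15a3 and Slc15a4 act, 1 rose and 1 fell in WT MG, 0 and 1 in WT sdCAMs, 1 and 0 in Ccr2-/- MG and in Ccr2-/- sdCAMs, 0 and 0 in reporter MG, 1 and 1 in tdT+ and 0 and 4 in tdT- sdCAMs. Tlr7 rose in WT MG (1.47, edgeR adjusted p = 4.24e-05) and Ccr2-/- MG (1.58, adjusted p = 1.27e-05), and Unc93b1, which carries these receptors to endosomes, fell in tdT+ (-2.19, adjusted p = 0.000144) and tdT- sdCAMs (-2.03, adjusted p = 5.89e-05). Unc93b1 was called with the exchange too (-2.18, adjusted p = 0.00419, and -2.04, adjusted p = 0.00442), and 1 sensor then rose and 1 fell in tdT+ and 0 and 1 in tdT- sdCAMs. Of the 4 MiT/TFE factors, which control lysosomal genes, 0 rose and 2 fell in WT MG, 1 and 1 in Ccr2-/- MG, 0 and 1 in Ccr2-/- sdCAMs and in tdT- sdCAMs, and 0 and 0 in the other 3 populations. After the exchange 0 of them were called in tdT+ or tdT- sdCAMs. For the sensors and these factors the shares of all genes called are again those given with the transporters. Mitf fell in WT MG (-1.32, adjusted p = 0.00879) and Ccr2-/- MG (-1.56, adjusted p = 0.000359), and Tfeb in WT MG (-1.17, adjusted p = 0.00251). Tfec was higher in sdCAMs than in MG without LPS in all 3 lines, by 5.07 to 9.52.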

How the data were processed

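MG and sdCAMs were sorted, and cDNA was made from their RNA with a SMARTer low-input kit, tagged with Nextera XT and sequenced as single reads of 50 cycles on an Illumina HiSeq. The submitters' processing notes name bcl2fastq 2.20, STAR 2.7.11a, featureCounts 2.0.8 and DESeq2 1.46.0, with mm10 or GRCm39 as the genome. The authors deposited 3 tables of raw read counts per gene symbol (WT, Ccr2-/- and reporter, 18 columns each), which were used as they stand, and 0 columns lacked a sample. The study's methods describe a ComBat-seq correction of WT and Ccr2-/- data, and whether it precedes these tables is not stated. The strand setting of the counting is not given in the sources used here, so reads of overlapping or antisense genes cannot be told apart, and reads that fit 2 paralogs could be split. The libraries hold no molecular identifiers, so count floors (3 counts) cover counting error only.

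Groups were taken from the labels. Genes passing filterByExpr were fitted by edgeR 4.0.16 (limma 3.58.1, R 4.3.3) with TMM scaling and the quasi-likelihood test, two-sided, with the Benjamini-Hochberg adjustment taken across every gene in the fit. Calls needed an adjusted p under 0.05 and an absolute log2 fold change above 1. The groups of a cell type shared 1 estimate of the spread, cell types were compared within a table, and reporter sdCAMs were fitted without MG. All 6 members passed the filter in every fit. Slc46a3 and Slc9a9 were given no p in any contrast of libraries after LPS. Figures were drawn with Python 3.11.15 and matplotlib 3.10.9. The code was tested on simulated counts.

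The 6 members were named in every comparison. From lists of other endolysosomal transporters, V-ATPase subunits, paralogs, nucleic acid and peptidoglycan sensors and MiT/TFE factors, at most 4 called genes per list and comparison were eligible, those of smallest p with a mean of at least 10 CPM. Members, lists and markers were chosen with earlier results of these data known, so their counts are descriptions. Part of the cell type marker lists is not reported here. Likeness was Pearson's r of log2 group means over the 18 groups.

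Populations sorted from 1 mouse are paired by design. Over 30 pairs, deviations from group means correlated at -0.129 to 0.328 (median 0.0686). No 2 libraries of a group agreed within sampling noise (lowest chi-square per degree of freedom 7.76 over 54 pairs). The alternatives were DESeq2 1.42.0, median-of-ratios size factors, no count filter, the count filter of the study, no fold limit, other sets of libraries in the fit, each library left out, the mouse as a block, the IEG mark as a covariate, and the exchange or omission of the conflicting reporter libraries.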

Additional observations from a re-analysis of the deposited data

Results flagged for a closer look

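The LPS response of Slc15a3 differed between cell types of Ccr2-/- mice by the interaction test itself. Its log2 change after LPS was 2.86 in sdCAMs, from 20 to 26.3 CPM untreated to 153 to 179 CPM after CTL+LPS, and 1.35 in MG, from 43.2 to 57.2 CPM to 98.6 to 156 CPM. In the joint fit the difference was 1.54 (edgeR adjusted p = 0.00721). In WT mice the same term was -0.35 ± 0.68 (edgeR adjusted p = 0.849) and was not called. The neutrophil markers in Ccr2-/- sdCAMs were at 1.42 to 3.09 CPM untreated and at 61.3 to 98.4 CPM after CTL+LPS, and their part in the Ccr2-/- value was not tested.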

How the results depend on the processing

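Over 22 comparisons and 312 alternative settings the number of called members stayed within 1.5 times its value in 263, was lower in 36 and higher in 13. For single members, 901 of 989 settings over 70 results kept direction and side of the threshold (or, where no p is given, stayed within 1 SD), 61 lost and 18 gained a call, 4 moved and 5 turned in direction. With the mouse as a replicate block 0 of 34 results changed, and 2 of 4 members were called between tdT+ and tdT- after LPS.

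Called members after LPS, of 4 tested, changed as follows, and the causes were not tested. WT MG (4): 0 in a fit of all 18 libraries of the table, which adds the more variable sdCAMs (common coefficient of biological variation 0.7 in WT sdCAMs and 0.257 in WT MG), and 2 to 4 when 1 library was left out (2 without CTL+LPS mouse 1 or untreated mouse 15). WT sdCAMs (1): 2 with DESeq2, with all 18 libraries, without the count filter or with only the groups compared, and 0 without any 1 of the 6 libraries. Ccr2-/- MG (2): 4 without the fold limit, and 2 to 3 when 1 library was left out. Ccr2-/- sdCAMs (4): 3 to 4 when 1 library was left out. Reporter MG (1): 2 with DESeq2 or all 18 libraries, 0 with the count filter of the study, and 0 to 2 when 1 library was left out (2 without PBS mouse 175, otherwise 0). tdT+ sdCAMs (3): 1 with both conflicting libraries left out, and 1 to 3 when 1 library was left out (1 without LPS mouse 1 or 7 or PBS mouse 175). Between tdT+ and tdT- after LPS (2 of 4): 0 with the libraries exchanged, with or without tdT+ mouse 5, 0 with both left out, 0 with only the groups compared, and 1 to 2 when 1 library was left out (1 without tdT+ mouse 5 or tdT- mouse 1). Between cell types at rest in WT mice (1 of 6): 2 with DESeq2 or median-of-ratios factors, 4 without the count filter, 0 with the IEG mark, and 0 to 3 when 1 library was left out (0 without MG of mouse 15 or sdCAMs of mouse 9, 3 without sdCAMs of mouse 15). At rest the number was 3 to 4 in Ccr2-/- mice (4) and 1 to 2 in the reporter (2) when 1 library was left out, with 1 without MG of mouse 175 or 177 or tdT- of mouse 175. Genotype at rest in sdCAMs (1): 3 without the count filter, 0 with the IEG mark, and 0 to 1 when 1 library was left out.

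The values that turned were those between tdT+ and tdT- after LPS: with the libraries exchanged and tdT+ mouse 5 left out, Slc9a9 was -0.12, Slc15a4 -0.0302, Slc29a3 -0.13 and Slc37a2 -0.58, and when 1 library was left out Slc15a3 ranged from -0.58 to 0.45 (0.45 without tdT- mouse 7).

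Counts of called genes also moved by over 1.5 times. For the LPS responses they were 1972 in WT MG (539 to 3643 under other settings), 664 in WT sdCAMs (137 to 2831), 2243 in Ccr2-/- MG (1829 to 4036), 118 in reporter MG (0 to 998), 1698 in tdT+ (966 to 2640) and 3371 in tdT- sdCAMs (1513 to 4394). They were 1352 between tdT+ and tdT- after LPS (0 to 2074) and 3 after PBS (0 to 113), 2242 between WT cell types (960 to 3078), 1471 between those of the reporter (1109 to 2237), 174 for cell type by LPS in WT mice (46 to 887), 686 and 1260 for genotype in MG (535 to 2170) and sdCAMs (349 to 2249), and 0 for genotype by LPS in MG (0 to 31) and sdCAMs (0 to 622). After BLZ945 they were 9 (0 to 108), 0 (0 to 788), 2 (0 to 70) and 0 (0 to 145) in WT MG, WT sdCAMs, Ccr2-/- MG and Ccr2-/- sdCAMs. Median-of-ratios factors moved the median of all genes by 0.19 in tdT- after LPS, -0.13 between tdT+ and tdT- after LPS, 0.10 between WT cell types, 0.16 for cell type by LPS in WT mice and -0.18 for genotype by LPS in sdCAMs, and they moved the share of higher among called genes from 35.1% to 24.8% between tdT+ and tdT- after LPS and from 32.8% to 44.6% for cell type by LPS in WT mice. Depth limits Slc46a3 in sdCAMs after LPS most, where libraries held 0 to 112 counts.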
